A study of Mus musculus with 4 samples.

Results

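Pax7, Myf5, Myod1, Myog, Myf6, Mymk and Mymx, the genes that mark muscle stem cells and switch on the muscle programme, were followed in 4 RNA-seq libraries of mouse joint tissue. These 7 genes were a list of names, with no threshold on their values, taken from 50686 identifiers counted for the hip and 54838 for the knee. The study deleted Cbfb, which encodes the non-DNA-binding partner of the Runx transcription factors, in cartilage and sequenced tissue labelled as articular cartilage. The hip pair consisted of an untreated Cbfβf/f control, which has no Cre, and tamoxifen (TMX)-injected Cbfβf/f;Col2α1-CreERT mice. The knee pair consisted of oil-injected and TMX-injected Cbfβf/f;Aggrecan-CreERT mice, so that only the knee control carried the Cre transgene. All 4 groups carried the floxed Cbfb alleles. Hip tissue was taken at 6 weeks of age (2 months in another passage of the study) after TMX at 2 weeks. Knee tissue was taken at 12 weeks after TMX at 6 weeks (8 weeks in another passage). The Col2α1 and Aggrecan promoters are active in cartilage cells, and the study gives a general number of mice per group but not how many went into a library.

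Satellite cells are the stem cells that lie along muscle fibres, and Pax7 marks them. Once activated, they turn on the myogenic regulatory factors, which bind E-boxes in DNA: Myf5 and Myod1 commit the cell to muscle, Myog drives it to differentiate, and Myf6 (also called Mrf4) stays on in mature fibres. Mymk (myomaker) and Mymx (myomixer) are membrane proteins through which myoblasts fuse into fibres, and adult muscle at rest makes little of either.

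RefSeq promoter sequence was matched for 3 of the 7 genes. The 250 bases upstream of the start of each are shown because they cover an early, a middle and a late step of the programme, with coordinates in GRCm38.p6. Capitals mark the E-box CANNTG, the Mef2 motif (CTA and TAG with 4 bases between them) and an AT-rich Mef2-type motif (CTA, 4 bases of A or T, TA and any base). The last was added after the Myog promoter had been read, and it overlaps the second motif where the final base is G. Each was searched on both strands.
Myog, chr1:134289754-134290003, plus strand: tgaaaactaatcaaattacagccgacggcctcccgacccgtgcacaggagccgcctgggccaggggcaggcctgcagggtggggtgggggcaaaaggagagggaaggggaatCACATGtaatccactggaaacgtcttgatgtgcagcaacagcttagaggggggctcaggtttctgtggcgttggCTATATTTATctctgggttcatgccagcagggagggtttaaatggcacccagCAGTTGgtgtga
Myf5, chr10:107486135-107486384, minus strand: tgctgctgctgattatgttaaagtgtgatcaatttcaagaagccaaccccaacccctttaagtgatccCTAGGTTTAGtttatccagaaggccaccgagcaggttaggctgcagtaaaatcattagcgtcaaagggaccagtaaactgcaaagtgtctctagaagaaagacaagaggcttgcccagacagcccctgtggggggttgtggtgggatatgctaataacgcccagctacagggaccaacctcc
Pax7, chr4:139832969-139833218, minus strand: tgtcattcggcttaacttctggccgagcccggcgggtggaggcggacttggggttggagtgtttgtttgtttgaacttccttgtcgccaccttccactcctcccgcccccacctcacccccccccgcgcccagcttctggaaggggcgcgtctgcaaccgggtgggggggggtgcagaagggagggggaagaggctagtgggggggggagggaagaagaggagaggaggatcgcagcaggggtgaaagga
Upstream of Myog there were 2 E-boxes, CACATG at -138 to -133 and CAGTTG at -12 to -7, and the AT-rich motif as CTATATTTAT at -64 to -55, counted from the start site. Upstream of Myf5 there was no E-box and 1 Mef2 motif, CTAGGTTTAG at -182 to -173. None of the 3 motifs was found in the Pax7 window. Of 32851 mouse promoter windows of this length, 66.2% held an E-box, 3.20% the Mef2 motif and 3.26% the AT-rich motif. These matches describe the letters and not the use of a site.

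The libraries held 34264456 to 38473120 counts on genes. There was 1 library per condition, so that no replicate error and no test was available; differences below are between libraries, and intervals are exact 95% intervals that cover counting error only. Cbfb, the deleted gene, gave no clear check of the labels. It had 2548 counts in the hip control and 2946 in the hip library labelled Cbfb-deficient (log2 ratio 0.41), and 3796 against 4572 in the knee (log2 ratio -0.071, interval -0.13 to -0.0086). With a trend of all genes with transcript length and GC content removed, both signs turned, to -0.20 in the hip and 0.087 in the knee. The study reported less Cbfβ protein after TMX by western blot, in hip cartilage of both Cre lines and in older mice. Protein of cartilage is another measure than the RNA counts of bulk tissue used here. The libraries labelled Cbfb-deficient are called mutant libraries below, as a name only. Contractile and metabolic genes of mature fibres (18 genes, such as Acta1 and Ckm) took 18.8% of the counts in the hip control, 19.6% in the hip mutant, 1.36% in the knee control and 2.88% in the knee mutant library. For 12 chondrocyte markers, such as Col2a1 and Acan, the shares were 0.0285%, 0.0302%, 0.551% and 0.311%, and none of the 12 was at 0. The extraction note in the labels names osteoblasts as the source of the RNA, and osteoblast markers took 0.0885%, 0.0213%, 1.15% and 0.677%. The hip libraries thus held far more fibre RNA than RNA of cartilage or osteoblast markers. In such bulk tissue, fewer cells of a type and less RNA per cell cannot be told apart.

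Myf6, the factor of mature fibres, was the most abundant of the 7 genes in every library. Its level in CPM (counts per 1000000 counts on genes) per kilobase of exon was 58.9 for the hip control, 80.2 for the hip mutant, 12.3 for the knee control and 16.2 for the knee mutant library. Myod1 followed at 19.0, 14.1, 1.96 and 4.13 CPM per kb. Myog came next at 2.88, 6.81, 0.616 and 1.04 CPM per kb. The order Myf6, Myod1, Myog was the same in the 4 libraries, and neighbours in it had intervals that did not overlap. Myf5 and Pax7 were lower, and in the hip control, at 0.649 and 0.470 CPM per kb, their intervals overlapped. In the hip mutant library Myf5 (0.764 CPM per kb) stood above Pax7 (0.316 CPM per kb) without overlap. In the knee control the intervals of Mymk, Pax7, Mymx and Myf5 overlapped from each to the next, so that their order could not be read at this depth. Among the 18387 protein-coding genes with a count in the hip control, Myf6 ranked at percentile 97.5, Myod1 at 92.8 and Myog at 71.9 by CPM per kb. Among 16810 such genes in the knee control the same factors ranked at 84.9, 49.2 and 31.2.

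**Figure D1:**
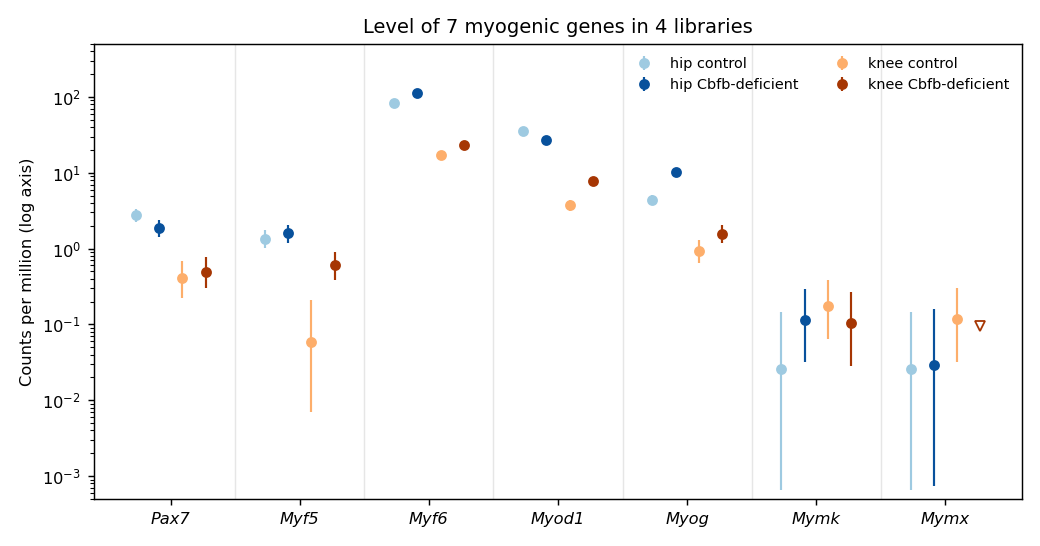
CPM of each of the 7 genes in the 4 libraries on a log axis, with exact 95% Poisson intervals (counting error only, 1 library per condition). Myf6 is the highest in each library, between 17.4 and 113 CPM, and Mymk and Mymx lie at or near the floor of 3 counts.

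The satellite cell gene Pax7 (ENSMUSG00000028736, GRCm39 chr4:139464373-139560839, minus strand) had 106 counts in the hip control, 64 in the hip mutant, 14 in the knee control and 19 in the knee mutant library. It was lower in the hip mutant, at a log2 ratio of -0.53 with an interval from -1.0 to -0.069. For the knee the log2 ratio was 0.088, and its interval, -0.97 to 1.21, covers a change of either sign. With the trend described under Myod1 removed, the interval in the hip also included 0 (-0.84 to 0.096).

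Myf5 and Myf6 are neighbours on chromosome 10 with 6716 bases between them. The commitment factor Myf5 (ENSMUSG00000000435, chr10:107318769-107321995, minus strand) had 52 and 55 counts in the hip control and mutant libraries and 2 and 23 in those of the knee. The hip libraries could not be told apart (log2 ratio 0.28, interval -0.30 to 0.85). The knee mutant library was higher, at a log2 ratio of 2.89 with a wide interval (1.17 to 6.31) because the control held only 2 counts, under the floor of 3 counts. Myf6 (ENSMUSG00000035923, chr10:107328712-107330656, minus strand) had 3207 counts in the hip control, 3923 in the hip mutant, 595 in the knee control and 877 in the knee mutant library. It was 1.40-fold higher in the hip mutant (log2 ratio 0.49, interval 0.42 to 0.56) and 1.16-fold higher in the knee mutant library (0.22, 0.068 to 0.37).

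Myod1 (ENSMUSG00000009471, chr7:46025870-46028526, plus strand), the second commitment factor, had 1383 counts in the hip control and 924 in the hip mutant library. It had 127 counts in the knee control and 299 in the knee mutant library. The pairs went opposite ways: the log2 ratio was -0.38 in the hip (interval -0.51 to -0.26) and 0.89 in the knee (0.59 to 1.21, 1.86-fold). The sign in the hip depended on a trend with transcript length and GC content across all genes. When genes of that pair were put in 5 equal groups by GC content, the median log2 ratio was 0.86 in the lowest group and -0.44 in the highest, and the Myod1 transcript, at 59.1% GC, was the richest of the 7. With the trend removed the hip log2 ratio of Myod1 became 0.31 (0.19 to 0.43). The knee pair had medians of -0.033 and 0.042 in the same groups. In 5 equal groups by transcript length, the hip medians were -0.33 for the shortest and 0.54 for the longest. Those of the knee were -0.34 and 0.21, so that the knee had a trend with length. Myod1 in the knee was 1.01 with the trend removed.

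Myog (ENSMUSG00000026459, chr1:134217707-134220287, plus strand), the differentiation factor whose promoter is shown above, had 168 counts in the hip control and 357 in the hip mutant library. It was 2.43-fold higher in the mutant (log2 ratio 1.28, interval 1.02 to 1.56). In the knee it had 32 and 60 counts, and the interval of the log2 ratio of 0.56 reached from -0.075 to 1.23. With the trend removed, Myog had log2 ratios of 1.96 in the hip and 0.76 in the knee, and the interval in the knee then left out 0 (0.13 to 1.43).

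The fusion genes were barely detected. Mymk (ENSMUSG00000009214, chr2:26951627-26962228, minus strand) had 1 count in the hip control, 4 in the hip mutant, 6 in the knee control and 4 in the knee mutant library. Mymx (ENSMUSG00000079471, chr17:45911239-45913028, minus strand) had 1, 1, 4 and 0 counts in the same order. The floor of 3 counts, a limit from above only, is 0.0780 to 0.0876 CPM across the 4 libraries, and the exact interval of the 0 in the knee mutant library reached 0.0965 CPM. A difference in Mymx was not detectable at this depth. The knee log2 ratio of Mymk was -0.87 with an interval from -3.19 to 1.15. Mymk lies within the span of Adamtsl2 on the opposite strand, with 0 exon bases in common, and Adamtsl2 had 60, 20, 64 and 116 counts.

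A gene was called higher or lower where the pair held at least 10 counts, the log2 ratio was at least 1 in size and its interval left out 0. In the hip, 5 of the 7 genes held enough counts and 1 of them, Myog, was called higher, while 36.5% of the 19856 genes compared were called (20.2% higher and 16.3% lower). In the knee, 6 of the 7 held enough counts and 1 of them, Myf5, was called higher, while 15.8% of 21131 genes were called (9.00% higher and 6.81% lower). Myf5 held enough counts there only through the mutant library, and when both libraries had to hold 10 counts, 0 of the 7 genes were called in the knee (11.4% of all genes). In the knee, Myod1 was called beside Myf5 by library size (17.3% of all genes called) and with the trend removed (14.7%), and in the hip the call of Myog stood with the trend removed (29.6%). By the interval alone, Myf6 and Myog were higher and Pax7 and Myod1 lower in the hip mutant library, where 37.3% of all genes were higher and 33.7% lower. By the same measure Myf5, Myf6 and Myod1 were higher and no gene of the 7 lower in the knee mutant library, where 31.9% were higher and 29.7% lower. The number of calls among the 7 was thus not above that of all genes in the hip, and 1 gene decided it in the knee. Median log2 ratios of the genes with enough counts were 0.28 (hip) and 0.39 (knee), and those of all genes compared were 0.014 and 0.019.

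**Figure D2:**
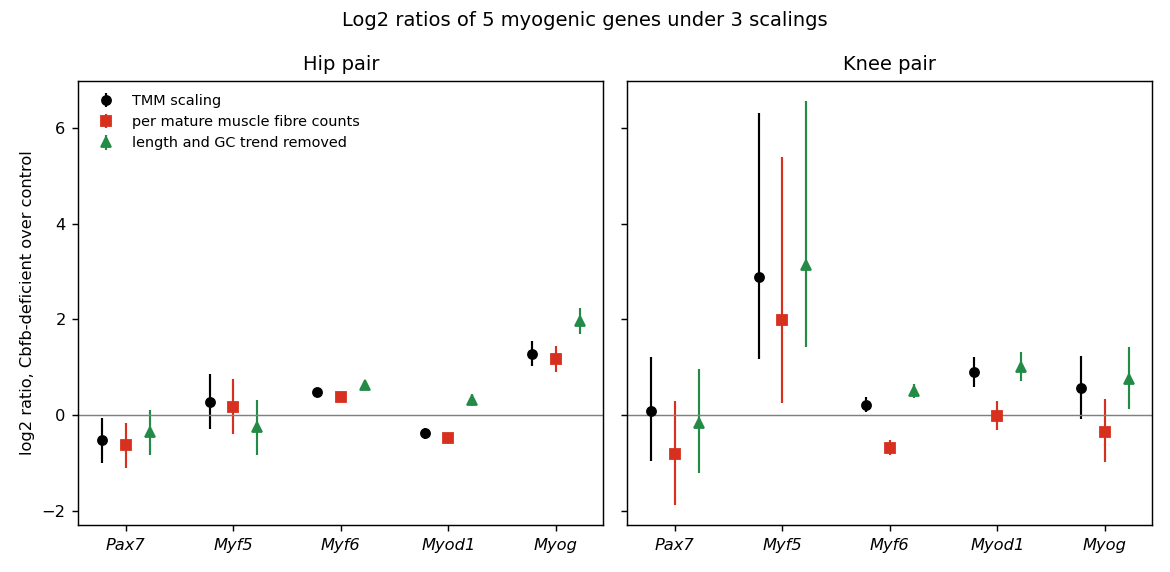
log2 ratio of the mutant (labelled Cbfb-deficient) to the control library for the genes with enough counts, with 95% counting intervals, for the hip and the knee pair. With TMM, Myog in the hip (1.28) and Myf5 in the knee (2.89) lie beyond 1, and Myod1 lies at -0.38 in the hip and 0.89 in the knee.

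The ratio of one factor to another within a library does not depend on how libraries are scaled. Myog counts per Myod1 count were 0.121 for the hip control and 0.386 for the hip mutant, a log2 difference of 1.67 (1.37 to 1.97) that stayed at 1.65 with the trend removed. For the knee they were 0.252 and 0.201, a log2 difference of -0.33 whose interval (-1.05 to 0.41) included 0. The balance of the differentiation to the commitment factor was thus higher in the hip mutant library beyond counting error, and the difference between the joints was not tested. Myf6 counts per Myod1 count were 2.32 and 4.25 in the hip libraries (log2 difference 0.87, 0.73 to 1.01, or 0.32 with the trend removed). Those of the knee were 4.69 and 2.93 (-0.68, -1.02 to -0.33). Myf5 counts per Pax7 count were 0.491 and 0.859 in the hip (log2 difference 0.81, 0.059 to 1.56), and with the trend removed that difference was 0.11 (-0.64 to 0.86). In the knee, where the counts were few, they were 0.143 and 1.21.

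As a share of the summed CPM per kb of the 4 regulatory factors, Myf6 took 72.3% in the hip control, 78.7% in the hip mutant, 82.5% in the knee control and 74.8% in the knee mutant library. Myod1 took 23.3%, 13.9%, 13.2% and 19.1%. Myog took 3.54%, 6.68%, 4.14% and 4.78%, and Myf5 at most 1.33%. The hip mutant library thus had a smaller share of Myod1 and a larger share of Myog than its control, while the share of Myf6 was 72.2%, close to that of its control, once the trend was removed. In turn, the knee mutant library had a larger share of Myod1 and a smaller share of Myf6.

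**Figure D3:**
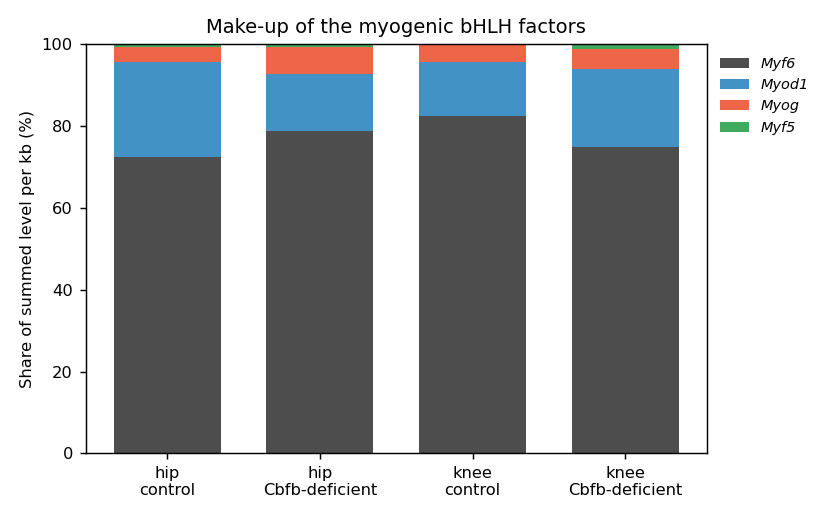
Share in percent of Myf5, Myod1, Myog and Myf6 in their summed CPM per kb, 1 stacked bar per library. Myf6 takes 72.3% to 82.5% of each bar and Myod1 13.2% to 23.3%.

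Since these factors are made in muscle cells, they were also set against the summed count of the 18 mature fibre genes, as counts per 1000000 fibre counts. On this scale Myf6 was 444 for the hip control, 578 for the hip mutant, 1279 for the knee control and 796 for the knee mutant library. Myod1 was 191, 136, 273 and 271, and Myog 23.3, 52.6, 68.8 and 54.5. Pax7 was 14.7, 9.44, 30.1 and 17.2. Going to this scale shifted every log2 ratio alike, by -0.11 in the hip and by -0.90 in the knee. All 18 fibre genes were higher in the knee mutant library beyond counting error (11 called higher, median log2 ratio 1.05), and the log2 ratio on this scale was -0.68 (-0.84 to -0.53) for Myf6 and -0.012 (-0.31 to 0.30) for Myod1. Fibre genes in the hip went both ways (3 called higher, 4 lower), and the log2 ratio of Myog there was 1.18 (0.91 to 1.45). The amount of fibre RNA moved with Myf6 and Myod1 in the knee, and its part in them was not tested.

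**Figure D4:**
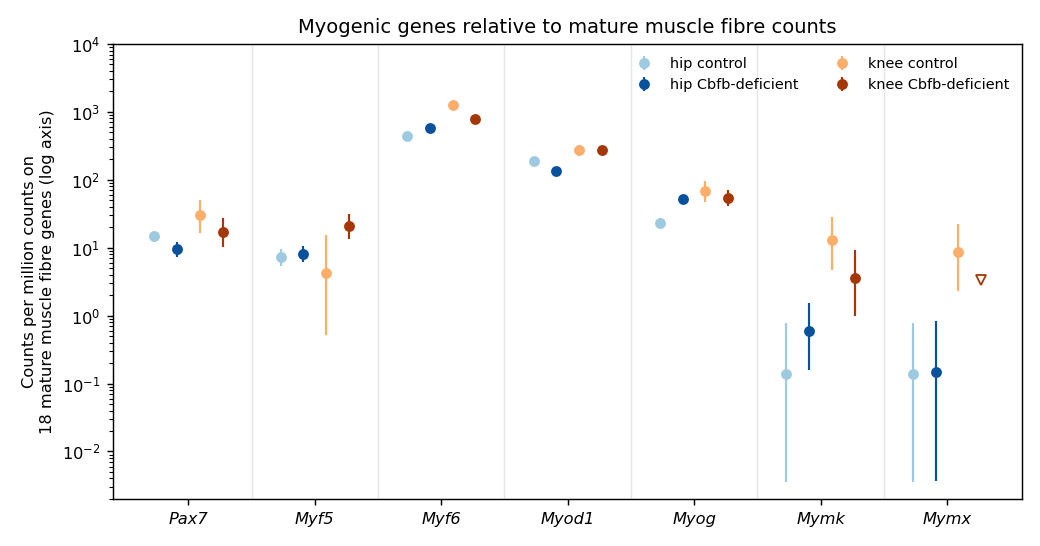
Counts of each gene per 1000000 counts of the 18 mature fibre genes in the same library, on a log axis, with 95% binomial intervals and 1 library per condition. Myf6 in the knee lies at 1279 in the control and 796 in the mutant library, the reverse of its order in CPM.

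The hip and knee tables differ in format and identifiers and were normalized separately, so that levels across the joints are set side by side only. In CPM the hip control was 4.80 times as high as the knee control for Myf6, 9.70 times for Myod1, 4.68 times for Myog and 6.74 times for Pax7. The summed fibre genes were 13.8 times as high, more than any of these. For the mutant libraries the values were 4.94 times for Myf6, 3.42 times for Myod1, 6.58 times for Myog and 3.72 times for Pax7, against 6.80 times for the fibre genes.

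Transcription factors that act before or beside the 7 genes were called higher for 4 and lower for 2 of 11 in the hip (median log2 ratio 0.15, with 36.5% of all genes called), and higher for 2 and lower for 1 of 10 in the knee (median 0.54, with 15.8% of all genes called). A lower call in the hip was Tcf21, a factor of facial muscle precursors named after its values were seen, which had 10 and 0 counts and held enough only through the control. Requiring 10 counts in each library left 4 higher and 1 lower there, with 30.1% of all genes called. Removing the trend left 3 higher and 1 lower, with 29.6% of all genes called. Eya4 had 239 and 1414 counts in the hip control and mutant libraries (log2 ratio 2.76). Eya1, like Eya4 a transcriptional co-activator, had 354 and 828 (1.42). Lbx1, needed by migrating muscle precursors, had 6749 and 2788 counts (-1.08), and -0.35 with the trend removed. In the knee, their relative Eya2 had 92 and 313 counts (1.42). The lower call there was Pax3, named after its values were seen, with 44 and 7 counts. It would drop out if each library had to hold 10 counts.

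Partners and cofactors of the myogenic factors were called higher for 3 and lower for 1 of 10 in the hip (median -0.28), near the 36.5% of all genes, and higher for 3 and lower for 0 of 10 in the knee (median 0.47), against 15.8%. A higher call in the knee was Myocd, a partner of Srf named after its values were seen, which had 0 and 12 counts, and requiring 10 counts in each library left 2 calls (11.4% of all genes). Mef2a, which works with the myogenic factors at muscle promoters, was higher in both mutant libraries, at 1901 and 5736 counts in the hip (log2 ratio 1.79) and 1462 and 3901 in the knee (1.08). Its relative Mef2c had 9445 and 19739 counts in the hip (1.26). Smarcd3, a chromatin remodelling subunit, had 217 and 1043 counts in the knee (1.92). The hip calls came to 1 higher and 1 lower once the trend was removed, with 29.6% of all genes called.

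Inhibitors of the factors or of muscle growth were called higher for 1 and lower for 3 of 11 in the hip (median -0.35), and for 1 each way of 11 in the knee (median -0.52), both near the shares over all genes (36.5% and 15.8%). Mstn (myostatin), a brake on growth made by muscle, was the gene called higher in each pair, at 725 and 2221 counts in the hip (log2 ratio 1.81) and 146 and 409 in the knee (1.14). Mdfi, which binds myogenic factors and holds them inactive, was lower in each, at 140 and 39 counts (-1.63) and at 1045 and 453 counts (-1.54). Heyl, a target of Notch signalling, was lower in the hip, at 289 and 110 counts (-1.19). Removing the trend left 1 inhibitor called higher and 0 lower in the hip, where 29.6% of all genes were then called, and the median turned to 0.050.

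Surface and niche genes of satellite cells were called higher for 1 and lower for 0 of 16 in the hip (median 0.28), below the 36.5% of all genes, and higher for 2 and lower for 1 of 16 in the knee (median -0.10), near the 15.8% there. The integrin chain Itgb1 had 4748 and 8449 counts in the hip (log2 ratio 1.03). Its muscle partner Itga7 had 522 and 1361 in the knee (1.04), and the syndecan Sdc4 had 5663 and 3215 (-1.16). Pax7 was called in neither pair. The hip count was 0 with DESeq2 size factors and with library size (36.5% of all genes in each), and with the trend removed it was 1 higher and 2 lower (29.6%).

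Genes of new myotubes and the neuromuscular junction were called higher for 4 and lower for 1 of 12 in the hip (median 0.48, beside 36.5% of all genes called), and higher for 5 and lower for 0 of 11 in the knee (median 1.06, beside 15.8%). The embryonic myosin Myh3 had 1202 and 3459 counts in the hip (log2 ratio 1.72), and the acetylcholine receptor subunit Chrnb1 had 611 and 1724 (1.69). In the knee the perinatal myosin Myh8 had 97 and 420 counts (1.77) and the fetal muscle actin Actc1 had 1427 and 5755 (1.67). Some genes of this list, named after their values were seen, held under 10 counts in 1 library. Myh3, called higher in the knee, had 6 and 46 counts there and held enough only through the mutant library. So did Chrnd (2 and 11), which was compared but not called. The lower call in the hip, Chrng, had 30 and 9 counts. With the trend removed, the hip calls of Mef2c (0.14), Mdfi (-0.94), Heyl (-0.91) and Itgb1 (0.54) fell short of a log2 ratio of 1 in size. So did the knee calls of Mef2a (0.93), Itga7 (0.93) and the junction gene Dok7 (0.93), the last also named after its values were seen.

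**Figure D5:**
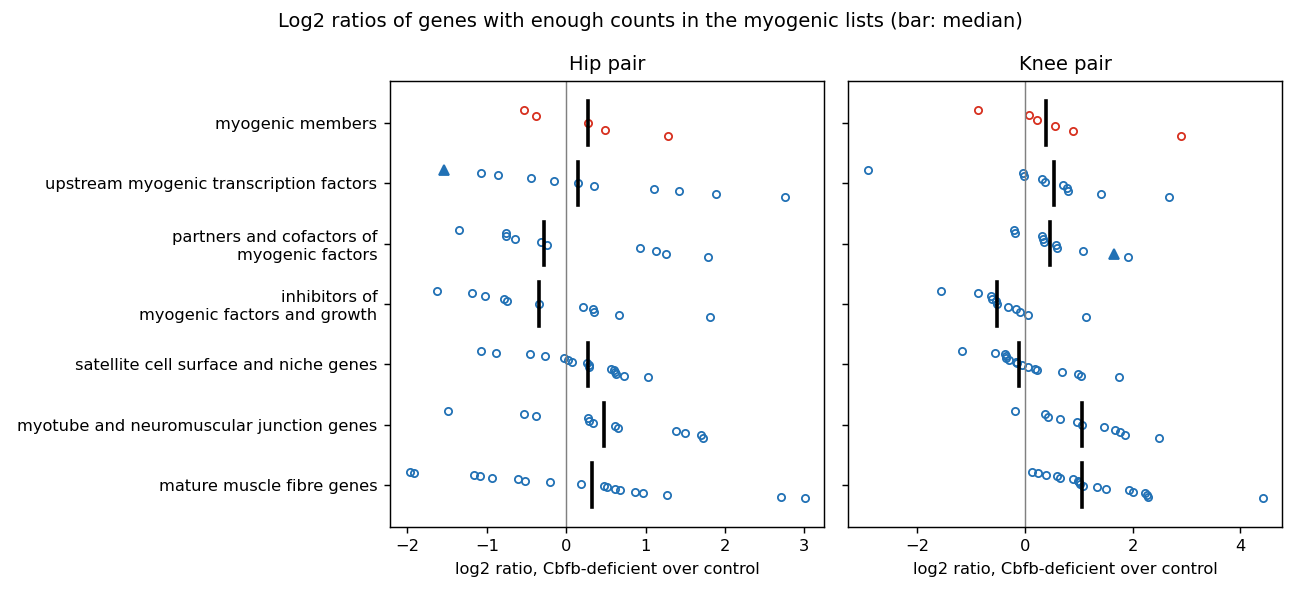
log2 ratios of mutant to control library for the genes with enough counts in each list, 1 point per gene (red for the 7 genes, blue for the other lists) and a bar at the median of each list, for the hip and the knee pair. A triangle marks a gene at 0 counts in 1 library, drawn with that 0 at the floor of 3 counts; the median of the myotube and neuromuscular junction genes is 0.48 in the hip and 1.06 in the knee.

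Genes with the most similar profiles were sought among 13326 protein-coding genes by Euclidean distance on log2(CPM + 0.1), centred over the 4 libraries. For Pax7 the nearest were Tonsl (distance 0.112), Tnni2 (0.154) and Fgf13 (0.191). For Myf5 they were Hoxa13 (0.145), Pptc7 (0.192) and Tmod1 (0.203). For Myf6 they included Nt5dc3 (0.0914) and Usp2 (0.193). Tnni2, near Pax7, encodes a troponin of fast fibres. The nearest to Myod1 were Kcne5 (0.0688), Plekhb1 (0.0699) and Atp6v0e2 (0.0918), and the nearest to Myog were Lpin1 (0.158), Pde4d (0.210) and Map4 (0.217). Among the 5 genes themselves, Myf6 and Myog were the closest, at 0.596, and Pax7 and Myf5 the farthest apart, at 1.47. With 4 libraries in 2 pairs, these distances describe the libraries only.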

How the data were processed

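RNA from 4 samples was sequenced as poly-A libraries, and the authors deposited whole-number counts of reads per Ensembl gene, 1 table per library. The submitters' processing notes name FastQC 0.11.3, STAR 2.0 and mm10, whereas the methods of the study name GRCm39. The counting program of the knee tables and the strand setting are not given in the sources used here. Summary lines of the hip tables (25.8% and 24.6% of the reads listed) name no gene and were left out. Gene positions, lengths and symbols came from GENCODE vM39 (GRCm39), where 91.8% (hip) and 92.6% (knee) of identifiers were found.

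The 7 genes and all lists were chosen with earlier results of these data known. Libraries were scaled within each pair with edgeR 4.0.16 (TMM, R 4.3.3). For log2 ratios 0.5 was added to each count, and exact Clopper-Pearson 95% intervals were computed from the counts with scipy 1.17.1. The study names a paired DESeq2 test, which needs replicates and was not run; no p-value is given. Alternatives were DESeq2 1.42.0 size factors, library size, 1 added to each count, at least 10 counts in each library, scaling to fibre counts, and removal of a trend with transcript length and GC content. Scripts were tested on simulated data. Besides the 7 genes and Cbfb, a list gene was named if it was called and reached 100 counts in either library of the pair, at most 2 in each direction per list and pair. Replicates were not available, and 1 library per condition limits each value to counting error. Values of some genes that this rule or the profile search would name are not reported here.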

Additional observations from a re-analysis of the deposited data

Results flagged for a closer look

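Myod1 was lower in the hip mutant library and higher in the knee mutant library, each beyond counting error, at log2 ratios of -0.38 and 0.89, but once the trend with length and GC content was removed the hip value was 0.31 (0.19 to 0.43), the sign of the knee. Among the other myogenic genes picked by the naming rule above, 5 also had opposite signs in the joints: Actc1 (-0.38 in the hip, 1.67 in the knee), Eya2 (-0.85, 1.42), Lbx1 (-1.08, 0.70), Smarcd3 (-0.76, 1.92) and Sdc4 (0.61, -1.16). Outside that rule other listed genes, such as Pax3 (1.89, -2.91), had opposite signs as well. With the trend removed, Eya2 in the hip was -0.22 and its interval included 0 (-0.56 to 0.099). Cbfb was at 0.41 in the hip and -0.071 in the knee, and both signs turned with the trend removed (-0.20 and 0.087). The difference between the joints was not tested for any of them, since each joint had 1 library per condition. The hip control lacked Cre and the knee control had it, and the ages and Cre drivers also differed, so that these cannot be told apart from the joint.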

How the results depend on the processing

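No paired analysis was possible because the labels give no replicate numbers and each condition has 1 library, and for the same reason no library could be left out. In the hip, the log2 ratio of Myf6 was 0.42 with DESeq2 size factors, 0.38 per fibre counts, 0.64 with the length and GC trend removed and 0.16 with the median of the fibre genes subtracted, a scale chosen after seeing the data. With the trend removed and with the fibre median subtracted, Myod1 in the hip was 0.31 (reversed) and -0.71, and Myog 1.96 and 0.95. In the knee, Myf6 was 0.40 by library size and 0.50 with the trend removed. Per fibre counts and with the fibre median subtracted, the knee values were -0.68 and -0.83 for Myf6, which reversed, and -0.012 and -0.16 for Myod1, whose intervals then included 0 so that its direction was lost, and -0.35 and -0.50 for Myog. Cbfb reversed to -0.20 in the hip with the trend removed, and in the knee to 0.11 by library size and 0.087 with the trend removed. Of the 7 genes, 2 were called in the knee by library size (17.3% of all genes), 2 with the trend removed (14.7%) and 0 with at least 10 counts in each library (11.4%). With that filter 4548 genes were called in the hip (3113 higher) and 2013 in the knee (1202 higher), against 7252 and 3342, as fewer genes were compared. The median log2 ratio of all genes moved by 0.18 in the knee by library size, by -0.90 per fibre counts and by -1.05 with the fibre median subtracted, and in the hip by -0.11 and -0.33 on the last 2 scales. The cause of the other changes was not tested. Depth limited Mymk, Mymx, and Pax7 and Myf5 in the knee.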

Other observations

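Marker genes of other cell types also differed within the pairs. In the hip mutant library 3 of 5 tendon markers, 4 of 6 osteoblast markers, 4 of 7 fibroblast and fibro-adipogenic markers and 3 of 6 erythroid markers were called lower, and none of these higher, where 16.3% of all genes were called lower and 20.2% higher. Of 7 adipocyte markers there, 1 was called higher and 3 lower, and of 6 Schwann cell and nerve markers 1 each way. Of the 11 chondrocyte markers with enough counts there, 2 were called higher and 3 lower. In the knee mutant library 8 of 12 chondrocyte markers (with 1 called higher), 3 of 6 osteoblast markers and 4 of 6 erythroid markers were called lower, and 3 of 6 adipocyte markers and 2 of 6 Schwann cell and nerve markers higher, where 6.81% of all genes were called lower and 9.00% higher. No tendon or fibroblast marker was called there. No endothelial marker of 5 was called in either pair.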
